A study of Mus musculus with 36 samples.

Results

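The comparison described here is the effect of losing a polycystin gene on the small RNAs of the kidney at postnatal day 7 (P7), taken over 2 mouse models of the autosomal dominant form of polycystic kidney disease together. Its members are 6 knockout (KO) and 6 control (WT) miRNA-seq libraries, chosen by age, model and genotype from the labels, and they make up 12 of the 36 libraries of the series. The other 24 libraries come from kidneys of the same genotypes at postnatal day 1 (P1) or day 3 (P3) and are used below for the time course. All mice were C57BL/6. In the Pkd1 model, WT kidneys were Pkd1f/f and KO kidneys Pkd1f/f:HoxB7-Cre. In the Pkd2 model, WT kidneys were Pkd2f/f and KO kidneys Pkd2f/f:HoxB7-Cre. Each of these 4 groups had n = 3 libraries at P7. Both genotypes of a model carried loxP sites around exons of the targeted gene, and the WT animals lacked Cre, so an effect of the Cre transgene itself cannot be told apart from that of gene loss. The HoxB7 promoter drives Cre in the collecting duct lineage, whereas RNA came from whole kidney, so each KO library mixed deleted cells with nephron, stromal, vascular and blood cells that kept the gene. Sex is not in the labels, nor is a statement that the libraries of a group came from separate animals, so p-values measure the spread between these libraries, which may be partly technical. The messenger RNAs of Pkd1 and Pkd2 were not analysed here, and the genotypes were therefore taken from the labels with no check on the targeted genes.

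MicroRNAs (miRNAs) are short RNAs cut from hairpin precursors, usually with 1 abundant strand (arm) and 1 scarce strand, called the 5p and 3p arms. They lower the output of messenger RNAs that pair with the seed, which is bases 2 to 8 of the mature miRNA, so miRNAs with the same seed share many potential targets. Cysts of this disease arise from renal tubules whose lining cells proliferate and secrete fluid, and miR-21 and the miR-17/92 cluster are known from other work in cystic kidneys.

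The P7 libraries held 14566003 to 27197967 reads on miRNAs and detected 820 to 1132 miRNAs each. The most abundant species, miR-10b-5p and miR-10a-5p, jointly took 41.1% to 81.0% of the reads of a library. This share differed by 3.53 percentage points between KO and WT (exact permutation test within models, two-sided, 400 arrangements, p = 0.62). The share of WT replicate 3 of the Pkd1 model, 57.9%, lay apart from the 79.9% and 81.0% of the other WT libraries of that model, and KO replicate 2 of the Pkd2 model held 74.1% against 41.1% and 57.4% in the other KO libraries. Results are therefore also given without these 2 libraries. Kidney miRNAs were abundant in each library: miR-192-5p, for instance, had 74163 to 626577 reads. Levels are given as normalised counts per 1000000 reads (CPM), scaled with TMM (trimmed mean of M values) factors, on which scale 3 reads corresponded to 0.0596 to 0.326 CPM at P7.

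Of 640 miRNAs tested at P7, 33 had an adjusted p under 0.05 for the KO effect common to both models, which is 5.16% of those tested (edgeR quasi-likelihood F-test with the model as a block, Benjamini-Hochberg adjustment). The 19 that were higher in KO (2.97%) had log2 fold changes from 0.61 to 2.47 with a median of 1.09. The 14 that were lower (2.19%) had log2 fold changes from −1.11 to −0.39 with a median of −0.67. The median over all 640 miRNAs was 0.01. At least a 2-fold difference was seen for 13 of the 33, of which 11 were higher and 2 lower in KO. Called rises included both arms of miR-183, miR-182 and miR-21a, and called falls included miR-653-5p, miR-192-5p and both arms of miR-802. At an unadjusted p under 0.05 there were 151 miRNAs.

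The calls rest on an effect common to both models in these 12 libraries, so a like sign in each model and separated libraries follow largely from the choice of the 33, and the counts here are a description from which nothing is read. The 33 miRNAs had the same sign of KO effect in the Pkd1 and Pkd2 models, as had 364 of all 640 miRNAs (56.9%). For 25 of the 33, the KO and WT libraries did not overlap within either model, against a background of 2.19% of the tested miRNAs on the higher side and 3.75% on the lower side. For 14 of the 33, each of the 6 KO libraries lay beyond each of the 6 WT libraries, against 1.09% higher and 1.41% lower among all those tested. The number of calls depended on single libraries: it was 20 without Pkd1 KO replicate 1, 54 without Pkd2 KO replicate 1, and 14, 15 and 16 without Pkd2 WT replicates 1, 2 and 3. Scaling by library totals alone left 3 calls, and leaving out both libraries that stood apart gave 58 calls, 25 of them among the 33. Of the 33, 28 were tested with 10 counts in every library, and no log2 fold change changed sign among these, or among the 33 in the 12 fits without 1 library and in the other settings.

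**Figure D1:**
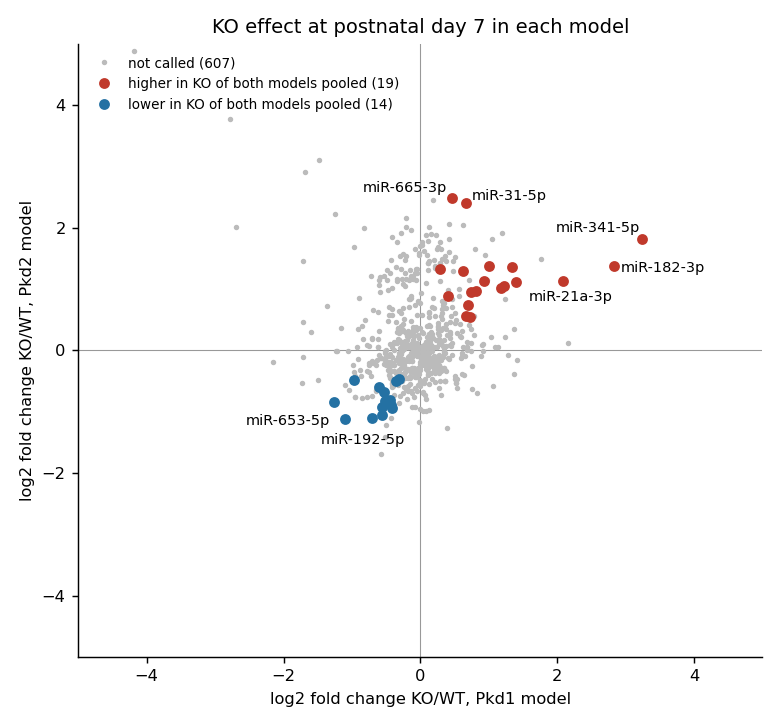
Each point is 1 of the 640 miRNAs tested at postnatal day 7, with the log2 fold change KO/WT of the Pkd1 model on the x axis and that of the Pkd2 model on the y axis. The 19 miRNAs called higher lie in the upper right and the 14 called lower in the lower left, while a group of grey points is displaced upwards in the Pkd2 model with Pkd1 values near 0.

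The mature sequences of the miRNAs that carry the result are shown here, with the seed in capitals, to show which of them share a seed. They come from RefSeq (GRCm38.p6), which held a sequence for 32 of the 33 called and 535 of the 640 tested miRNAs. The members of the miR-183, miR-96 and miR-182 cluster have related seeds that are not identical:
miR-183-5p: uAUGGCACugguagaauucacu
miR-182-5p: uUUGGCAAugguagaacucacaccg
miR-96-5p: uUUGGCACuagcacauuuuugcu
Further called rises were miR-21a-5p and the pair miR-221-3p and miR-222-3p, which share the seed GCUACAU:
miR-21a-5p: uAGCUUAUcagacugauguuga
miR-221-3p: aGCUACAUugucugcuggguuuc
miR-222-3p: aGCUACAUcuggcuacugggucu
The miR-200 family has 2 seeds, and members of both are shown because called and uncalled members carry the same seed:
miR-200c-3p: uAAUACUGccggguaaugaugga
miR-200b-3p: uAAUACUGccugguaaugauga
miR-429-3p: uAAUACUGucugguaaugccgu
miR-141-3p: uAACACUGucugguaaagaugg
miR-200a-3p: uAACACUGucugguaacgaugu
Among the falls, miR-204-5p and miR-211-5p share a seed, and so do miR-192-5p and miR-215-5p:
miR-204-5p: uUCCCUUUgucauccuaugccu
miR-211-5p: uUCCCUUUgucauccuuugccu
miR-192-5p: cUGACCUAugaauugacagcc
miR-215-5p: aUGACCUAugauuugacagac
miR-194-5p: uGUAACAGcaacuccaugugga
miR-802-5p: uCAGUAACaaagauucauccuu
miR-653-5p: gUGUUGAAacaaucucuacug
miR-363-3p: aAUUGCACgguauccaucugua
miR-488-3p: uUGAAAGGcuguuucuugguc

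Both arms of miR-183 and of miR-182 rose. They belong with miR-96 to a cluster that is best known from sensory organs and is also transcribed in epithelia. Of its 5 tested arms 4 were called higher and 0 lower, against 2.97% called higher and 2.19% called lower among all tested miRNAs. The median log2 fold change was 1.35, compared with 0.01 over all tested miRNAs. One of the called arms, miR-182-3p, would not have met the count filter on its WT libraries alone. In the Pkd1 model, miR-183-5p stood at 974, 1142 and 840.1 CPM in the 3 KO libraries and at 398, 440.4 and 428 CPM in the WT libraries. In Pkd2 kidneys it stood at 752, 945 and 605 CPM in KO and at 440.0, 353 and 319.8 CPM in WT. Each of the 6 KO libraries thus exceeded each of the 6 WT libraries, and the log2 fold change was 1.13 ± 0.14 (SE, n = 6 KO and 6 WT, adjusted p = 0.000834, edgeR).

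miR-182-5p, one of the most abundant called miRNAs, had 10339.7, 11201 and 9584 CPM in Pkd1 KO and 5359.8, 5623 and 4505 CPM in Pkd1 WT. In the Pkd2 model its levels were 4698, 9005 and 6259 CPM in KO and 3069, 2288 and 2292 CPM in WT. The groups did not overlap within a model, but the lowest Pkd2 KO library lay below the higher Pkd1 WT libraries. The log2 fold change was 1.195 ± 0.16 (SE, adjusted p = 0.00147, edgeR). The scarce arm miR-183-3p stood at 5.29, 8.65 and 5.28 CPM in Pkd1 KO and at 1.83, 3.15 and 2.65 CPM in Pkd1 WT. Pkd2 libraries held 26.7, 39.5 and 30.5 CPM in KO and 9.39, 13.6 and 14.4 CPM in WT. Despite this gap in level between the models, the KO effect was similar, with log2 fold changes of 1.34 (Pkd1) and 1.36 (Pkd2). miR-96-5p, the remaining abundant member, had a log2 KO/WT ratio of 1.56 ± 0.43 (SE, adjusted p = 0.0569 by edgeR) and did not pass the threshold. Its Pkd2 KO libraries ranged from 18.4 to 93.7 CPM, and the lowest of them lay under the highest Pkd2 WT library at 26.7 CPM. The outcome depended on the setting. All 5 arms of the cluster, miR-96-5p included, were called higher with DESeq2, with DESeq2-type size factors and with scaling without miR-10. Of the 5, 2 were called with library totals alone and 3 with a replicate block. The hairpins of miR-183 and miR-182 lie on chromosome 6 of GRCm38 at chr6:30169668-30169737 and chr6:30165918-30165992, both on the minus strand and outside annotated host genes (GENCODE).

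miR-21a, which is induced in injured and fibrotic kidneys, rose on both arms. miR-21a-5p stood at 15312, 13712 and 12717 CPM in Pkd1 KO and at 5377, 5456 and 5049 CPM in Pkd1 WT. In the Pkd2 model the levels were 5987, 12141 and 7640.5 CPM in KO and 4304, 3788 and 3757 CPM in WT. The WT libraries were tightly grouped, each KO library exceeded each WT library, and the KO libraries of the Pkd2 model were spread over a wide range. The log2 fold change was 1.26 ± 0.16 (SE, adjusted p = 0.000834, edgeR), with 1.39 for Pkd1 and 1.12 for Pkd2. For miR-21a-3p, KO libraries ran from 54.2 to 216 CPM with a median of 126, and WT libraries from 23.6 to 68.5 CPM with a median of 33.4, a log2 KO/WT ratio of 1.61 ± 0.33 (SE, adjusted p = 0.0177 by edgeR). The miR-21a hairpin, at chr11:86584067-86584158 on the minus strand, overlaps an exon of Vmp1 on the same strand.

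**Figure D2:**
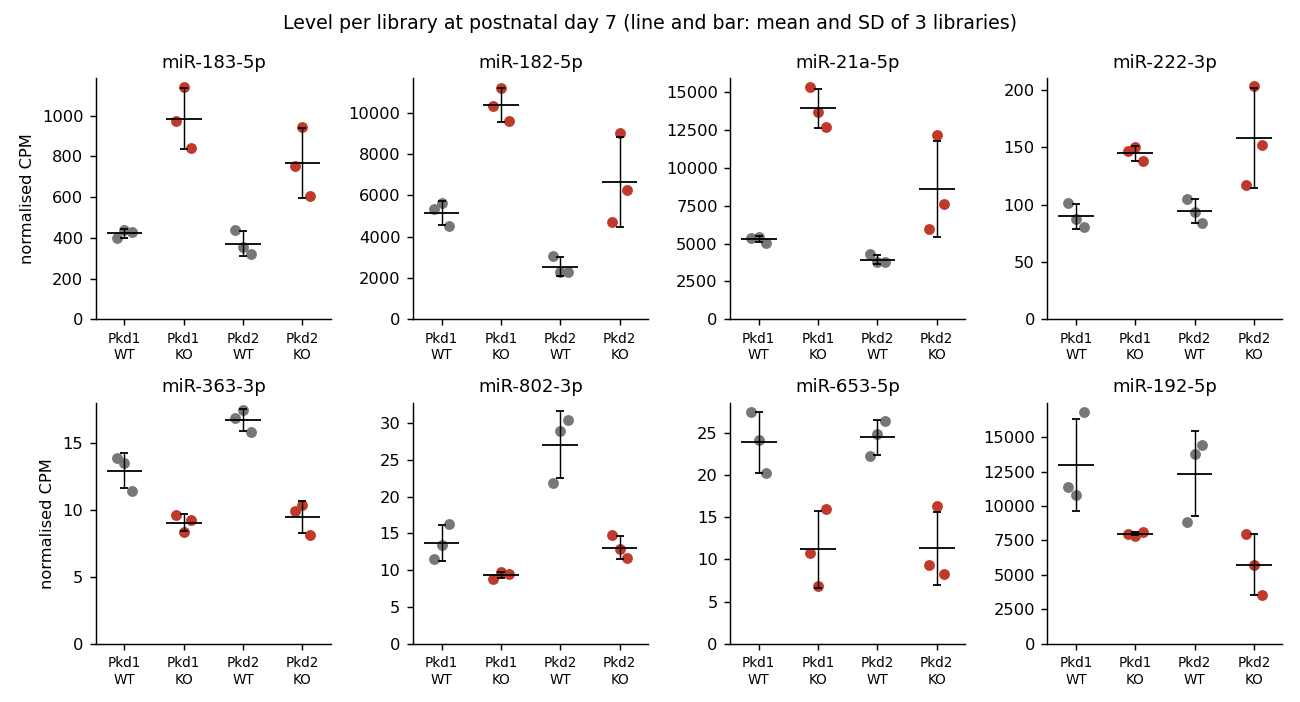
Normalised CPM (y axis, linear from 0) of 8 miRNAs in each P7 library, with WT libraries in grey, KO libraries in red and the mean with SD of 3 libraries in black. KO libraries lie above WT libraries of the same model for miR-183-5p, miR-182-5p, miR-21a-5p and miR-222-3p, and below them for miR-363-3p, miR-802-3p, miR-653-5p and miR-192-5p.

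miR-221 and miR-222, neighbours on chromosome X that are known to target the cell cycle inhibitor Cdkn1b, rose on their 3p arms. Of 4 tested arms 2 were called higher, against 2.97% of all tested miRNAs, and the median log2 fold change was 0.68. miR-221-3p ran from 203 to 295 CPM in KO with a median of 276 and from 145 to 194 CPM in WT with a median of 164. miR-222-3p ran from 117 to 204 CPM in KO with a median of 148 and from 80.2 to 105 CPM in WT with a median of 90.7. Neither miRNA showed overlap between the 6 KO and the 6 WT libraries. The log2 fold changes were 0.63 ± 0.12 (SE, adjusted p = 0.0113) for miR-221-3p and 0.72 ± 0.14 (SE, adjusted p = 0.0125) for miR-222-3p by edgeR. The 5p arms had log2 fold changes of 1.02 (miR-221-5p, adjusted p = 0.339) and 0.55 (miR-222-5p, adjusted p = 0.0945), which did not pass.

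The miR-200 family, which holds back the transcription factors Zeb1 and Zeb2 and is found in epithelial cells, lies in 2 genomic clusters. Of its 10 tested arms 3 were called higher, against 2.97% of all tested miRNAs. These were miR-141-5p, miR-200c-3p and miR-200c-5p, which come from neighbouring hairpins at chr6:124717914-124717985 and chr6:124718322-124718390. In the 12 fits without 1 library, miR-141-5p kept its call in 12, miR-200c-3p in 7 and miR-200c-5p in 2. Scaling by library totals alone left 0 calls in the family, and a replicate block left 0. miR-200c-3p ran from 106 to 179 CPM in KO with a median of 141 and from 76.8 to 116 CPM in WT with a median of 85.8, a log2 KO/WT ratio of 0.65 ± 0.15 (SE, adjusted p = 0.0263 by edgeR). Its ranges overlapped through Pkd1 WT replicate 3. The abundant arm of miR-141, miR-141-3p, had 0.52 ± 0.26 (SE, adjusted p = 0.256), whereas the scarce arm miR-141-5p had 0.85 ± 0.17 (SE, adjusted p = 0.0149). Members of the other cluster did not pass, and the clusters were not tested against each other: the log2 fold change was −0.26 for miR-200b-3p (adjusted p = 0.178), −0.20 for miR-429-3p (adjusted p = 0.482) and 0.01 for miR-200a-3p (adjusted p = 0.997). The median over the 10 arms was 0.02 and took both signs under the scalings tried (−0.04 to 0.02). miR-200c-3p and miR-200b-3p share the seed shown above, yet they differed in the sign of the log2 fold change, and the difference between them was not tested.

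Other called rises among miRNAs above 10 CPM were miR-31-5p, miR-224-5p, miR-134-5p, miR-299a-3p and miR-27a-5p. miR-31-5p, an epithelial miRNA, had 45.4 to 185 CPM in KO with a median of 72.0 and 18.1 to 59.1 CPM in WT with a median of 25.4, a log2 KO/WT ratio of 1.54 ± 0.40 (SE, adjusted p = 0.0417 by edgeR). It had 0.67 for Pkd1 and 2.41 for Pkd2, and it kept its call in 4 of the 12 fits without 1 library. miR-224-5p, from an intron of Gabre, had 8.76 to 32.7 CPM in KO with a median of 21.3 and 6.21 to 17.1 CPM in WT with a median of 10.4. miR-27a-5p did not overlap between genotypes, with 10.1 to 14.1 CPM in KO and 6.36 to 8.66 CPM in WT, while the abundant arm miR-27a-3p had a log2 fold change of 0.10 (adjusted p = 0.758).

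In a list of nephron tubule miRNAs 6 of 10 tested arms were called lower, against 2.19% of all tested miRNAs. This group was listed as miR-192, miR-194, miR-215, miR-802, miR-204 and miR-211, and not each of these was abundant. The mean of miR-215-5p was 3.16 CPM in KO and 4.19 CPM in WT. For miR-211-5p, which is among the 6 called arms, it was 1.20 and 2.05 CPM. Of 13 annotated arms 10 were tested and 0 were called higher, and the 10 had a negative log2 fold change with a median of −0.67. The median was −0.44 in the Pkd1 model, where 1 of the 10 was positive, and −0.91 in the Pkd2 model. Because whole kidneys were sequenced, fewer tubule cells and less of these miRNAs per cell cannot be told apart.

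miR-192-5p was the most abundant called miRNA. Its Pkd1 KO libraries stood at 7999, 7858 and 8115 CPM and the WT libraries at 11364, 10785 and 16832 CPM. In the Pkd2 model KO libraries stood at 7981, 5715 and 3558 CPM and WT libraries at 8824, 13782 and 14462 CPM. Each KO library lay below each WT library, and the log2 fold change was −0.90 ± 0.21 (SE, adjusted p = 0.0243, edgeR). miR-194-5p, transcribed next to miR-192 on chromosome 19 and also from a hairpin on chromosome 1, had −0.67 ± 0.15 (SE, adjusted p = 0.0241), with 156 to 348 CPM in KO and 224 to 617 CPM in WT. miR-204-5p, from an intron of Trpm3, ran from 271 to 456 CPM in KO and from 479.5 to 745 CPM in WT without overlap, a log2 KO/WT ratio of −0.66 ± 0.15 (SE, adjusted p = 0.0263 by edgeR). Its seed partner miR-211-5p, from an intron of Trpm1, was present at a mean of 1.62 CPM and had −0.71 ± 0.18 (SE, adjusted p = 0.0399, edgeR). That call was kept in 3 of the 12 fits without 1 library. The mature sequences of miR-204-5p and miR-211-5p are nearly identical, and whether their reads were kept apart was not tested. The 2 falls are therefore not counted as independent of each other. miR-215-5p, the seed partner of miR-192-5p, had −0.27 (adjusted p = 0.483) and did not pass.

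Both arms of miR-802 fell. miR-802-3p stood at 8.84, 9.68 and 9.50 CPM in Pkd1 KO and at 11.5, 13.4 and 16.3 CPM in Pkd1 WT. For Pkd2 it was found at 14.7, 12.9 and 11.6 CPM in KO and at 21.9, 28.9 and 30.4 CPM in WT. The groups did not overlap within a model, and the log2 fold change was −0.81 ± 0.15 (SE, adjusted p = 0.0113, edgeR). miR-802-5p had −0.75 ± 0.16 (SE, adjusted p = 0.0197, edgeR). The calls of the nephron tubule group depended on the WT libraries of the Pkd2 model: without replicates 1, 2 and 3 of that group 2, 2 and 1 members were called lower, and 4 to 6 without any other library. Scaling by library totals alone left 0 calls. The median log2 fold change stayed between −0.72 and −0.57 in these fits.

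The remaining falls came from other genomic contexts. miR-653-5p, from an intron of the calcitonin receptor gene Calcr, had the most negative log2 fold change. It stood at 10.8, 6.84 and 15.97 CPM in Pkd1 KO and at 27.4, 24.1 and 20.2 CPM in Pkd1 WT. In Pkd2 kidneys it stood at 9.36, 16.3 and 8.22 CPM in KO and at 22.3, 24.8 and 26.4 CPM in WT. KO and WT did not overlap over the 12 libraries, and the log2 fold change was −1.11 ± 0.22 (SE, adjusted p = 0.0134, edgeR). The tested miRNA within 10000 bases of it, miR-489-3p, had −0.65 (adjusted p = 0.133).

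miR-363-3p belongs to the cluster of miR-106a on chromosome X, a relative of the miR-17/92 cluster. It stood at 9.60, 8.30 and 9.22 CPM in Pkd1 KO and at 13.9, 13.5 and 11.4 CPM in Pkd1 WT. Pkd2 libraries held 9.94, 10.4 and 8.12 CPM in KO and 16.8, 17.4 and 15.8 CPM in WT. These values gave a log2 KO/WT ratio of −0.67 ± 0.12 (SE, adjusted p = 0.0113 by edgeR) with no overlap. Among the 13 tested arms of the clusters of miR-106b and miR-106a it was the 1 called. Their median was −0.34, and 11 of the 13 values were negative. By model the median was −0.01 for Pkd1, where 6 of the 13 were positive, and −0.56 for Pkd2, where 1 was.

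miR-488-3p, from an intron of Astn1, stood at 13.6, 10.97 and 12.2 CPM in Pkd1 KO and at 17.6, 19.4 and 18.9 CPM in Pkd1 WT. In the Pkd2 model the levels were 11.6, 10.6 and 9.97 CPM in KO and 16.6, 16.98 and 15.2 CPM in WT. The 6 KO libraries lay below the 6 WT libraries, with a log2 KO/WT ratio of −0.60 ± 0.11 (SE, adjusted p = 0.0105, edgeR). Its other arm, miR-488-5p, had a log2 fold change of 0.00 at 0.772 CPM. Smaller falls were called for miR-874-3p (−0.63 ± 0.14, SE, adjusted p = 0.0241), miR-497a-5p (−0.39 ± 0.10, SE, adjusted p = 0.0399) and miR-339-3p (−0.43 ± 0.11, SE, adjusted p = 0.0449). miR-497a-5p carries the seed of the miR-15/16 family, of which 6 mature miRNAs with that seed were tested, and it was the 1 called. The abundant miR-16-5p had −0.15 (adjusted p = 0.567).

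Of the 33 called miRNAs 8 had a mean under 10 CPM. miR-182-3p had 5, 27 and 14 reads in Pkd1 KO and 0, 1 and 5 reads in Pkd1 WT, and 26, 17 and 22 reads in Pkd2 KO and 3, 8 and 14 reads in Pkd2 WT. miR-341-5p had 18, 14 and 5 reads in Pkd1 KO and 1, 1 and 2 reads in Pkd1 WT, and 14, 4 and 11 reads in Pkd2 KO and 3, 1 and 3 reads in Pkd2 WT. It reached the count filter through the KO libraries alone, and its fitted log2 fold change of 2.47 rests on WT counts of 3 reads or fewer. miR-201-5p was lower in KO, with 0.216 to 0.497 CPM against 0.508 to 1.14 CPM in WT. In the Pkd1 model it had 2, 9 and 6 reads in KO and 7, 10 and 22 reads in WT. Pkd2 libraries held 25, 10 and 18 reads in KO and 27, 36 and 22 reads in WT. Its lowest KO value thus lies under the floor of 3 reads, and its call was kept in 2 of the 12 fits without 1 library. miR-615-5p, at 1.62 to 3.83 CPM in KO and 2.30 to 6.46 CPM in WT, also fell (log2 fold change −0.61 ± 0.16, SE, adjusted p = 0.0403, edgeR). miR-511-3p, named after its values were seen because it lies in an intron of the macrophage receptor gene Mrc1, had 2.37 to 4.996 CPM in KO and 1.35 to 2.61 CPM in WT, a log2 KO/WT ratio of 1.09 ± 0.23 (SE, adjusted p = 0.0177 by edgeR). The leukocyte miRNAs listed as markers did not pass: miR-142a-3p had 0.45 (adjusted p = 0.231), miR-223-3p had 0.02 (adjusted p = 0.993) and miR-150-5p had −0.50 (adjusted p = 0.088). Their summed level ran from 56.3 to 119 CPM in KO and from 81.0 to 94.7 CPM in WT, and their part in the level of miR-511-3p was not tested. In a wider leukocyte list 0 of 9 tested arms were called with all 12 libraries, and 6 values were positive and 3 negative. The median was 0.04, with values from −0.84 to 1.63. At an unadjusted p under 0.05 by edgeR, 1 arm was higher and 2 were lower.

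Several miRNA groups of interest in cystic or developing kidneys gave no calls by edgeR with the 12 libraries of P7. For the miR-17/92 cluster, whose members promote proliferation, 0 of 12 arms passed by edgeR, 0 had an unadjusted p under 0.05 and the median log2 fold change was 0.13, which turned to −0.08 without Pkd2 KO replicate 2 and to −0.19 without both libraries that stood apart. Its abundant members miR-92a-3p, miR-19b-3p and miR-17-5p had −0.15 (adjusted p = 0.411), 0.41 (adjusted p = 0.787) and 0.07 (adjusted p = 0.808) by edgeR. In the miR-30 family, 10 of 11 values were negative with a median of −0.21, and the lowest, miR-30e-3p, had −0.48 ± 0.13 (SE, adjusted p = 0.0596). Without both libraries that stood apart, 5 of the 11 were called lower and the median was −0.36. The fibrosis-related miR-29 family had 0 calls among 6 arms and a median of 0.42, with −0.26 for Pkd1 and 0.86 for Pkd2. Its median ran from 0.11 without Pkd2 WT replicate 3 to 0.61 without Pkd1 KO replicate 2, and 1 arm was called higher without both libraries that stood apart. The let-7 family had 0 calls among 22 arms and a median of 0.04 (1 higher and 2 lower without those libraries), and the stromal group of miR-199 and miR-214 0 among 6 with 0.00. miR-126a, miR-143 and miR-145a, which mark vascular cells, had 0 calls among 6 arms and a median of −0.01. The 5 most abundant miRNAs of the 12 libraries were miR-10b-5p, miR-10a-5p, miR-30a-5p, miR-143-3p and miR-181a-5p, with log2 fold changes from −0.31 to 0.26 and adjusted p of 0.275 or more.

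**Figure D3:**
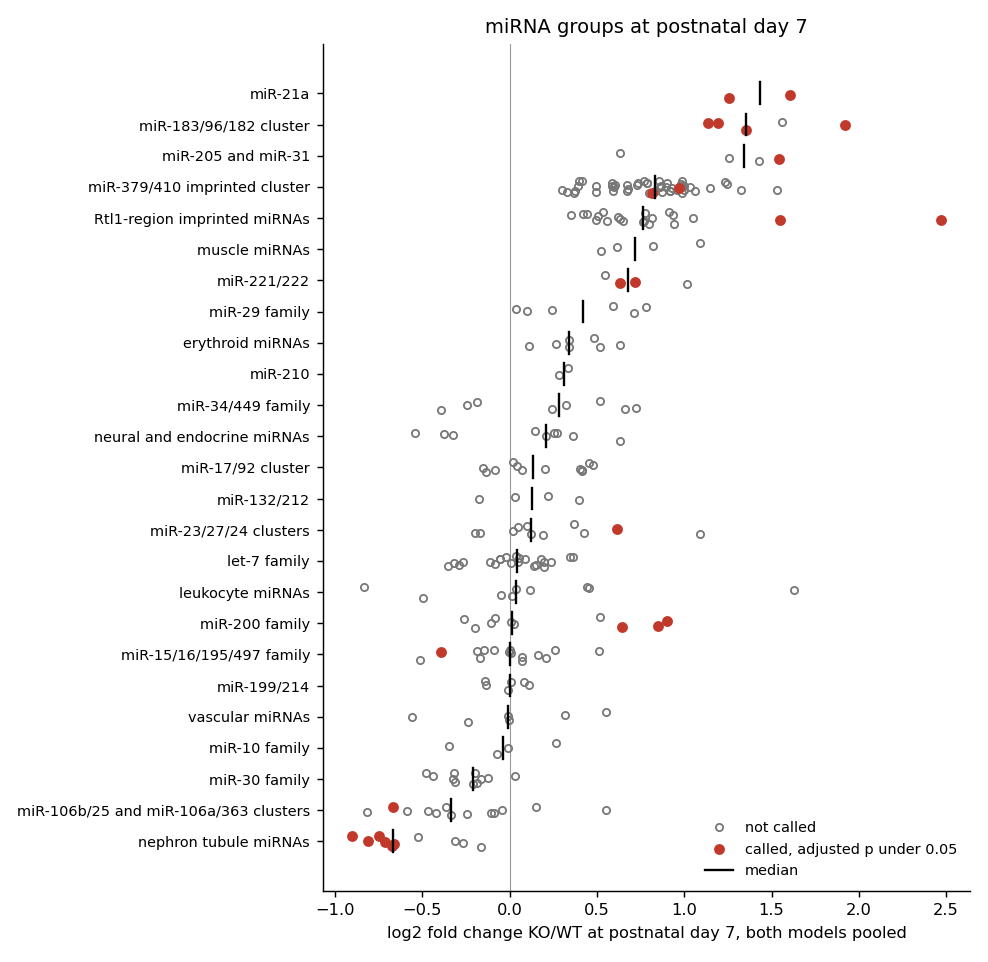
Each circle is a tested miRNA arm, placed by its log2 fold change KO/WT at postnatal day 7 with both models pooled (x axis) in the row of its group, with called arms in red and the group's median as a vertical line. The medians run from −0.67 for the nephron tubule miRNAs to 1.43 for miR-21a.

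A test of the difference between the models found 0 of 640 miRNAs with an adjusted p under 0.05 (0% of those tested), 101 at an unadjusted p under 0.05, and 20 calls by DESeq2. Leaving out Pkd2 KO replicate 2 raised the edgeR count to 61, Pkd1 WT replicate 1 to 1 and Pkd2 WT replicate 1 to 2, so the count of 0 depends on single libraries and does not show that the models acted alike. Of the 33 common miRNAs 3 had an unadjusted p under 0.05 for the difference, miR-665-3p, miR-299a-3p and miR-31-5p, each with the larger effect in the Pkd2 model. For 22 of the 33 the effect was larger in size in the Pkd2 model, as it was for 378 of all 640 miRNAs.

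For miR-205, a miRNA of stratified and urothelial epithelium, the log2 fold change had opposite signs in the models, with −1.68 for Pkd1 and 2.91 for Pkd2 on the arm miR-205-5p. miR-205-5p stood at 18.6, 33.1 and 13.7 CPM in Pkd1 KO and at 46.9, 68.2 and 95.5 CPM in Pkd1 WT, whereas it stood at 368, 68.5 and 624 CPM in Pkd2 KO and at 73.9, 31.7 and 35.8 CPM in Pkd2 WT. KO lay below WT in the Pkd1 model, and 2 of 3 KO libraries lay far above WT in the Pkd2 model. The difference in log2 fold change was 4.59 ± 0.92 (SE, unadjusted p = 0.00031, adjusted p = 0.0556, edgeR), and its common log2 fold change was 0.63 (adjusted p = 0.757).

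The maternally expressed miRNAs of the imprinted Dlk1-Dio3 region on chromosome 12, listed as an Rtl1-region group and the miR-379/410 cluster, had 72 tested arms with a positive common log2 fold change in 72 of 72, against 50.9% of all tested miRNAs. These arms derive from a shared locus and are not independent of each other. Called were 4 of the 72, miR-341-5p, miR-665-3p, miR-299a-3p and miR-134-5p, a share near the 5.16% called among all tested miRNAs, and miR-341-5p met the count filter through KO libraries alone. Both lists had 0 calls without Pkd2 WT replicate 2, and 6 (Rtl1-region) and 11 (miR-379/410) without Pkd1 KO replicate 2. The group median was 0.80, but it was 0.07 in the Pkd1 model, where 39 arms were positive, and 1.46 in the Pkd2 model, where 72 were. For 52 of the 72 the difference between the models had an unadjusted p under 0.05. The abundant member miR-127-3p stood at 2245, 1571 and 1623 CPM in Pkd1 KO and at 1813, 2358 and 2384 CPM in Pkd1 WT. It stood at 3722, 1131 and 2186 CPM in Pkd2 KO and at 836, 1069 and 1247 CPM in Pkd2 WT, so the Pkd2 WT kidneys had the lowest group mean and Pkd2 KO replicate 2 lay within their range. The positive sign of the common effect was therefore carried by the Pkd2 model.

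Markers of other cell types are given beside this group. The summed level of 3 skeletal muscle miRNAs ran from 16.95 to 72.8 CPM in KO and from 11.5 to 36.9 CPM in WT. That of 3 red blood cell miRNAs ran from 2092 to 3755 CPM in KO and from 1453 to 2507 CPM in WT. Within the Pkd2 model, miR-133a-3p of muscle had a log2 fold change of 1.91 and miR-451a of red blood cells 1.32, while in the Pkd1 model they had −0.29 and −0.06. The defining muscle miRNA miR-206-3p had 0 to 19 reads in a library. None of these markers passed for the common effect by edgeR, and their part in the levels of the imprinted group was not tested. In the miR-183 cluster, by contrast, the medians were 1.22 for Pkd1 and 1.38 for Pkd2.

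**Figure D4:**
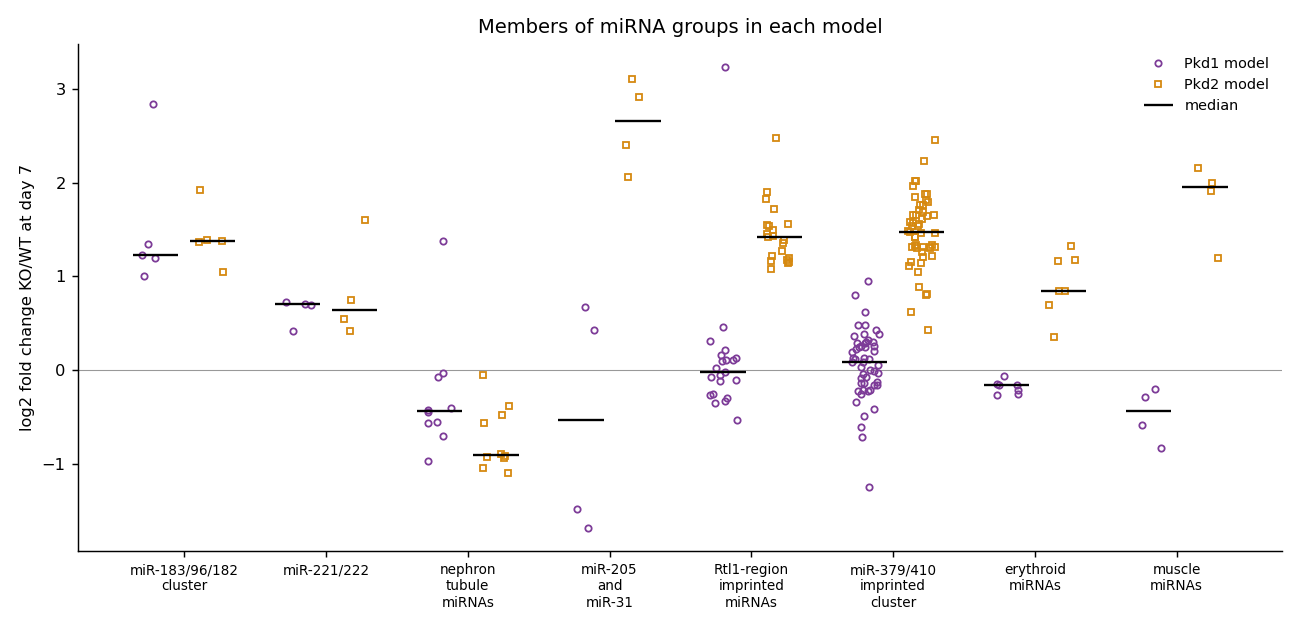
Members of 8 miRNA groups by their log2 fold change KO/WT at postnatal day 7 (y axis), with the Pkd1 model as purple circles, the Pkd2 model as orange squares and medians as black lines. The miR-183 cluster and the pair of miR-221 and miR-222 have similar medians in both models, while the imprinted, erythroid and muscle groups lie near or below 0 for Pkd1 and above 0 for Pkd2.

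The KO effect common to both models was then compared with that at younger ages. At P1, 0 of 722 miRNAs passed by edgeR (0%), with 93 at an unadjusted p under 0.05 and 0 by DESeq2. At P3, 0 of 729 passed by edgeR (0%), with 41 at an unadjusted p under 0.05 and 1 by DESeq2. Of the 33 miRNAs called at P7, 19 had the same sign at P1 and 28 at P3, and 2 had an unadjusted p under 0.05 at each of these ages. The share of like signs over all tested miRNAs was not counted, so nothing is read from these signs. The median size of their log2 fold change was 0.15 at P1, 0.17 at P3 and 0.85 at P7, compared with 0.20, 0.14 and 0.29 over all tested miRNAs. The P7 values of the 33 are part of their choice, so the rise to P7 is a description.

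In a fit of all 36 libraries the effect at P7 was tested against that at P1, and 4 of 775 miRNAs passed (0.516%), with 154 at an unadjusted p under 0.05. miR-21a-5p had a difference in log2 fold change of 1.39 (adjusted p = 0.000231) and miR-182-5p of 1.36 (adjusted p = 0.0137). miR-3084-5p had −2.13 (adjusted p = 0.0426) and miR-874-3p −0.73 (adjusted p = 0.0488). The count ran from 2 to 17 when 1 library was left out, with 17 without Pkd2 KO replicate 1 of P7. On the scale of this fit, the mean of miR-21a-5p in Pkd1 kidneys was 4370 CPM in KO and 4806 CPM in WT at P1, 5227 and 4911 CPM at P3, and 20382 and 7819 CPM at P7. In Pkd2 kidneys the means were 3067 and 3547 CPM at P1, 4525 and 4631 CPM at P3, and 12893 and 6221 CPM at P7. KO and WT thus lay close together at P1 and P3 in both models and separated at P7.

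miR-192-5p, the most abundant of the called falls, was followed in the same way. On the same scale its WT mean was 6921 ± 1307 CPM at P1 and 19425 ± 6294 CPM at P7 in the Pkd1 model (SD, n = 3), and 6589 ± 855 and 19647 ± 5583 CPM in the Pkd2 model. The KO mean was 9529 ± 625.1 CPM at P1 and 11729 ± 762 CPM at P7 in the Pkd1 model, and 3906 ± 767 and 8530 ± 3141 CPM in the Pkd2 model. In both models the KO libraries at P7 lay below those of WT, while the WT libraries at P7 lay above those at P1. In the imprinted group 4 of 72 arms had a positive common log2 fold change at P1, 71 at P3 and 72 at P7. For comparison, the 4 tested muscle arms had a median of −1.42 at P1, 0.84 at P3 and 0.72 at P7, and their part in the signs of the imprinted group was not tested.

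**Figure D5:**
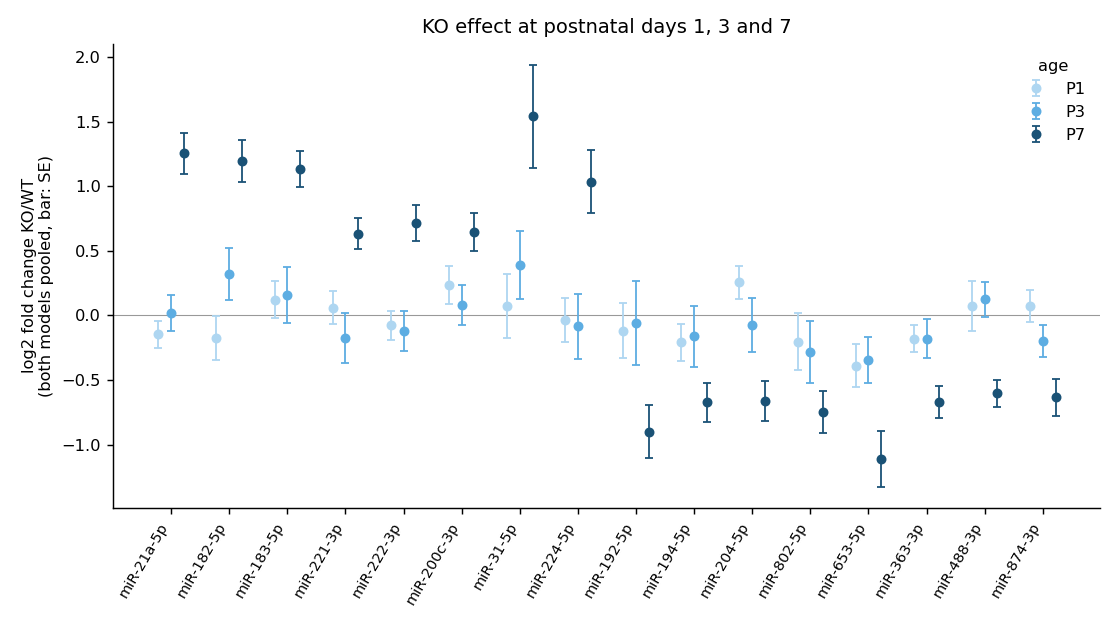
Log2 fold change KO/WT common to both models (y axis, bars are SE) for 16 of the called miRNAs at postnatal days 1, 3 and 7. Values at P1 and P3 lie between −0.39 and 0.39, and those at P7 lie at 0.63 or above for the 8 miRNAs on the left and at −0.60 or below for the 8 on the right.

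Arms, seeds and chromosomes of the called miRNAs were also counted. Of 199 hairpins with both arms tested, 137 had arms of the same sign. Among the 21 hairpins with a called arm 20 did, the exception being miR-488, and among the 178 with no called arm 117 did. The sign is part of the tested value, and for 5 of the 21 both arms were called, so nothing is read from this difference. Both arms were called for miR-183, miR-182, miR-21a, miR-802 and miR-200c. The 32 called miRNAs with a sequence carried 30 different seeds, and 2 seeds were shared by called miRNAs, GCUACAU in miR-221-3p and miR-222-3p and UCCCUUU in miR-204-5p and miR-211-5p. The hairpins of 5 called miRNAs lie on chromosome X. These counts describe the called miRNAs, which share precursors, and carry no test.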

How the data were processed

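Small RNA of whole kidneys was sequenced by the study in 36 libraries, of which the 12 of P7 are the subject here. Per the study's methods, the authors trimmed adaptors and counted reads with miRDeep2 against miRBase and the mouse genome (mm10). The submitters' processing notes also name CASAVA 1.8.2 and HTSeq. The authors deposited raw read counts, with 1 row for each pair of mature miRNA and hairpin and no normalization. The table has 2061 rows for 1915 mature miRNAs, and 83 of these stand on several rows, from which the row of highest total was taken, so that their reads cannot be assigned to 1 locus. A miRNA entered a fit where 3 or more of its libraries had 10 or more counts.

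The test was that of edgeR 4.0.16 under R 4.3.3 (TMM factors, quasi-likelihood F-test, Benjamini-Hochberg adjustment over all miRNAs tested). The common KO effect at P7 was fitted on 12 libraries with model as an additive term, the difference between models as an interaction, P1 and P3 in the same way on their 12 libraries each, and P7 minus P1 in a fit of all 36. SE is the log2 fold change divided by the square root of F. The scripts were tested on simulated data. Alternatives were DESeq2 1.42.0, other scalings and filters, summed rows, a replicate block, and leaving out each library; leaving out both libraries that stood apart and the miR-10 share as a covariate were added after seeing the data. The precision of a level is limited by the spread between libraries and, for scarce miRNAs, by counting error, with 3 reads taken as the floor.

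Replicate numbers did not pair KO with WT libraries: the correlation of deviations of same-numbered libraries was 0.246, −0.592 and −0.577 in the Pkd1 model and −0.838, −0.399 and −0.0476 in the Pkd2 model. No pair of replicates agreed within sampling noise (smallest chi-square per degree of freedom 38.0).

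Named miRNAs are up to 10 called rises and 10 called falls of at least 10 CPM by size, up to 3 of each under 10 CPM, the most abundant called, the most abundant of all tested, those called for P7 minus P1, and for each of 25 miRNA lists the called and the 4 most abundant members. The libraries compared and the lists were chosen with earlier results of these data known.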

Additional observations from a re-analysis of the deposited data

Results flagged for a closer look

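For the 33 called miRNAs the values of the 6 KO and of the 6 WT libraries were searched for a single library far from the rest by Dixon's test. Of 66 groups 4 held one. The nominal rate of about 1 in 20 holds for 6 values from 1 normal population. These groups pool both models, which can differ in level, so that rate is not a chance rate for them. miR-341-5p was at 1.94 CPM in Pkd1 KO replicate 1 and at 0.195 to 0.602 CPM in the other KO libraries. miR-200c-3p was at 116 CPM in Pkd1 WT replicate 3 and at 76.8 to 86.6 CPM in the other WT libraries. miR-31-5p was at 59.1 CPM in the same Pkd1 WT replicate 3 and at 18.1 to 32.5 CPM in the others. miR-211-5p was at 1.48 CPM in Pkd1 KO replicate 3 and at 1.08 to 1.20 CPM in the other KO libraries.

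The KO effect was larger in the Pkd2 than in the Pkd1 model for 3 called miRNAs at an unadjusted p under 0.05, and none of them passed the adjustment over 640 miRNAs. The difference in log2 fold change, Pkd2 minus Pkd1, was 2.02 for miR-665-3p, 1.05 for miR-299a-3p and 1.73 for miR-31-5p. The common KO effect at P7 differed from that at P1 with an adjusted p under 0.05 (edgeR) for miR-21a-5p by 1.39, for miR-182-5p by 1.36, for miR-3084-5p by −2.13 and for miR-874-3p by −0.73 on the log2 scale.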

How the results depend on the processing

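The 33 calls of the common KO effect (19 higher, 14 lower) became 3 (3 and 0) with library totals alone, 87 (48 and 39) with DESeq2, 56 (23 and 33) with 36 libraries in one fit, 58 (35 and 23) without both libraries that stood apart and 99 (47 and 52) with a covariate for the share of miR-10a-5p and miR-10b-5p. The higher side held 35 calls of 47 without a count filter, and the lower side 22 of 42 with 10 counts in every library. DESeq2-type size factors gave 32 calls, scaling without miR-10 gave 34 and summed rows gave 34. A replicate block left 4 calls (4 higher, 0 lower) for the common effect and 2 for P7 minus P1, and the numbers did not pair the libraries. Leaving out 1 library gave 14 to 54 calls (9 to 30 higher, 5 to 30 lower), 0 to 61 for the difference between the models and 2 to 17 for P7 minus P1. Of the 33, 11 were called in each of the 12 such fits, and miR-21a-5p and miR-182-5p were called in those and in each of the 11 other settings. The calls of miR-200c-5p, miR-201-5p and miR-339-3p were kept in the fewest such fits, 2 of the 12. The difference between the models had 20 calls with DESeq2, 54 without a filter, 3 with 36 libraries in one fit, 72 without both libraries that stood apart and 45 with the covariate. P3 gave 1 call with DESeq2 and 2 without a filter, and P1 gave 0 in each setting. P7 minus P1 gave 0 with library totals alone, 40 with DESeq2, 2 without a filter and 13 with 10 counts in every library. The cause of these shifts was not tested. The count of calls depends on the scaling and on the libraries, and 28 of the 33 were tested with 10 counts in every library. The 33 were chosen for their effect in these libraries, and no sign changed where a value was obtained. Depth limits the 8 called miRNAs under 10 CPM.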
